A study of Arabidopsis thaliana with 9 samples.

Results

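The 10 genes described here encode proteins that bring RNA polymerase V (Pol V) to its targets or act on chromatin after it. They were taken by locus from 32399 nuclear genes counted in each library, and all 10 were found by identifier. In the order of their roles they are DRD1 (AT2G16390), DMS3 (AT3G49250), SUVH2 (AT2G33290), SUVH9 (AT4G13460), AGO4 (AT2G27040), AGO6 (AT2G32940), SPT5L (AT5G04290, KTF1 in RefSeq), IDN2 (AT3G48670), DRM2 (AT5G14620) and MORC1 (AT4G36290, CRT1 in RefSeq). Counts came from leaves of 3-week-old Arabidopsis thaliana grown at 22 °C in cycles of 16 h light and 8 h dark. Col-0, the wild-type accession, was compared with lines carrying the alleles nrpd1-3, in the largest subunit of Pol IV, and nrpe1-11, in the largest subunit of Pol V. Nascent RNA from nuclear run-on with biotin-UTP (NRO) and nuclear RNA at steady state (RNA) were each counted in 1 library per genotype, so none of the 6 groups has a replicate. The labels do not give the number of plants pooled in a library. Where 3 values follow each other without a genotype, they stand for Col-0, nrpd1-3 and nrpe1-11 in this order.

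In RNA-directed DNA methylation, Pol IV transcripts are copied and cut into small RNAs, and Pol V makes longer transcripts at the loci to be silenced. Argonaute proteins carry the small RNAs to the Pol V transcripts, and a DNA methyltransferase is brought to the site by this pairing. Pol V itself is placed on chromatin by a remodelling complex and by proteins that bind DNA already methylated, which makes the pathway reinforce its own targets. All 10 genes are themselves transcribed by Pol II.

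NRO libraries held 2687149 gene counts in Col-0, 8185846 in nrpd1-3 and 7504294 in nrpe1-11. RNA libraries held between 386011 and 709905. Reads aligned to several places made up 79.8% of all reads in NRO of Col-0, against 48.4% and 47.8% in NRO of the mutants, and between 90.3% and 92.7% in RNA. NRPD1, the gene altered in nrpd1-3, had 9, 94 and 19 NRO counts, or 4.50, 10.7 and 2.05 CPM after scaling. It was thus highest in the library labelled nrpd1-3, so what is said of nrpd1-3 holds for a library known by its label alone. NRPE1, altered in nrpe1-11, had 24, 81 and 82 NRO counts. Its ratio to Col-0 in NRO of nrpe1-11 was 0.737 (95% counting interval 0.463 to 1.21), so that library too is known by its label alone. Counts over a whole gene do not show an insertion or a point mutation inside it.

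Together the 10 genes held 217, 938 and 988 counts in NRO. After scaling of the libraries by trimmed mean of M values (TMM), their sum stood at 108, 107 and 106 CPM (counts in 1000000 scaled gene counts). The ratio of the sums to Col-0 was 0.986 in nrpd1-3 (95% counting interval 0.850 to 1.15) and 0.982 in nrpe1-11 (0.847 to 1.14). In RNA the sums were 53, 56 and 66 counts, and the ratios 1.20 (0.808 to 1.78) and 1.28 (0.881 to 1.88). With TMM the sum was therefore not separable from Col-0 in either assay beyond counting error. With library totals in its place the sum was higher in both mutants. The ratios were then 1.42 (1.22 to 1.65) and 1.63 (1.41 to 1.90) in NRO, and 1.94 (1.31 to 2.88) and 1.79 (1.23 to 2.62) in RNA, so whether the sum differs depends on the scaling. In these bulk samples, fewer cells of a type and less RNA per cell cannot be told apart.

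Single genes were judged by size, since there is no replicate. A gene was called when its log2 ratio was at least 1 in size, a 2-fold difference, and the 95% exact interval of the ratio excluded 1. These intervals and all others on single libraries cover counting error only. A gene was taken as measured in an assay with at least 20 counts in at least 1 of its libraries. By this rule 9 of the 10 genes were measured in NRO, all but AGO6. Of these, DRD1, DMS3 and SUVH2 passed only through the mutant libraries, and DRM2 only through nrpe1-11. In RNA only SPT5L and SUVH9 were measured, through 20 counts in nrpd1-3 and 22 in nrpe1-11.

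**Figure D1:**
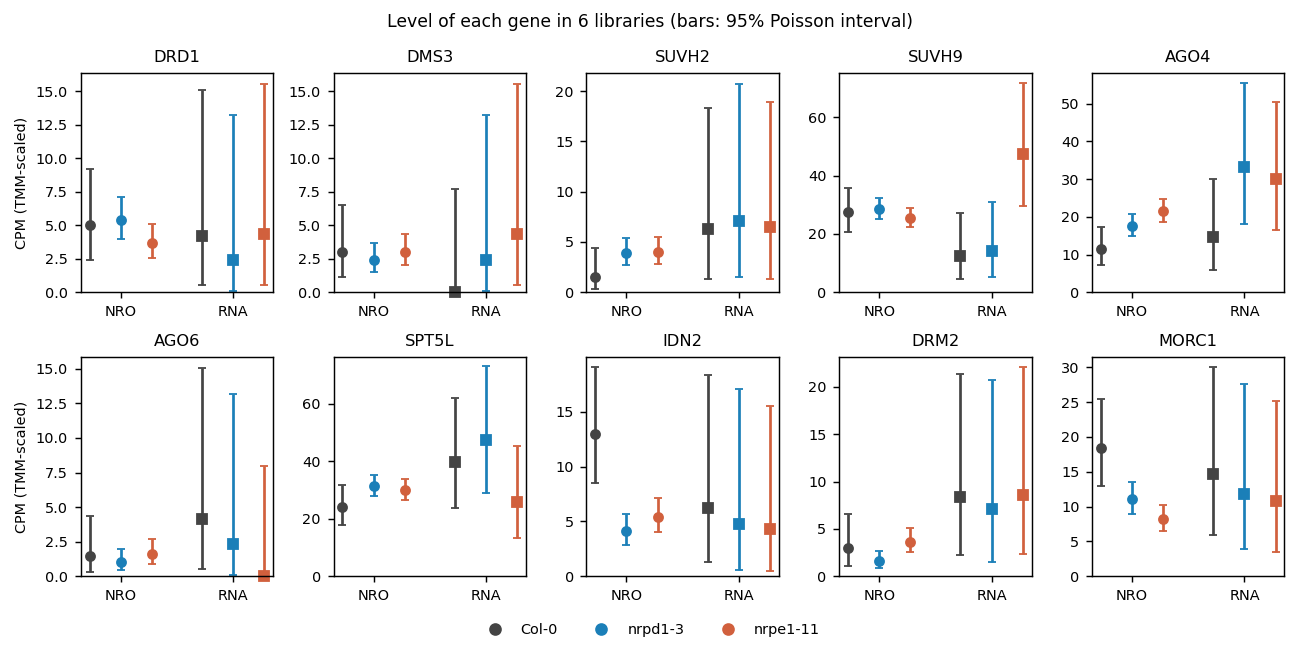
Level of each of the 10 genes in NRO (circles) and RNA (squares), in TMM-scaled CPM, with exact 95% Poisson intervals as bars and genotypes by colour. IDN2 and MORC1 are highest in NRO of Col-0, AGO4 is lowest there, and SUVH9 is highest in RNA of nrpe1-11; the y axes differ between panels.

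DRD1, a chromatin remodeller of the SNF2 family needed for Pol V to occupy its targets, showed no called difference. It had 10, 47 and 34 NRO counts, or 4.99, 5.36 and 3.66 CPM. Its NRO ratio to Col-0 was 1.07 in nrpd1-3 (0.535 to 2.38) and 0.733 in nrpe1-11 (0.354 to 1.66). Its RNA counts were 2, 1 and 2. The interval of its NRO level in Col-0, 2.40 to 9.19 CPM, spans the levels of both mutants.

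DMS3, a hinge-domain protein that works in 1 complex with DRD1, had 6, 21 and 28 NRO counts. These correspond to 3.00, 2.39 and 3.02 CPM, and the ratios to Col-0 were 0.799 (0.312 to 2.42) and 1.01 (0.409 to 2.97). RNA counts were 0, 1 and 2. The 3 NRO levels lay within one another's intervals. DRD1 overlaps BLH7 (AT2G16400) and DMS3 overlaps emb1796 (AT3G49240) in the RefSeq annotation of TAIR10.1. Whether the counting used strand is not known from the sources used here, and reads from the overlaps may have been mixed or left out as ambiguous. BLH7 had 11, 175 and 272 NRO counts, and emb1796 had 3, 27 and 36.

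SUVH2 and SUVH9 are related proteins that bind methylated DNA and help to recruit Pol V. SUVH2 had 3 NRO counts in Col-0, 34 in nrpd1-3 and 37 in nrpe1-11, or 1.5, 3.88 and 3.99 CPM. Its ratio to Col-0 was 2.59 in nrpd1-3 (0.813 to 13.2) and 2.66 in nrpe1-11 (0.842 to 13.5). Both ratios passed 2-fold, and neither interval excluded 1, so neither was called. Starting from 3 Col-0 counts, a call needed 42 counts in nrpd1-3 and 44 in nrpe1-11. RNA counts were 3 in each genotype. SUVH2 overlaps AT2G08565 in the RefSeq annotation, and that gene is not used here.

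SUVH9 held 55, 250 and 236 NRO counts, or 27.5, 28.5 and 25.4 CPM. Its NRO ratios to Col-0 were 1.04 (0.772 to 1.42) and 0.925 (0.687 to 1.26). With TMM the 3 nascent levels were thus close, and a 2-fold difference in either direction lies outside both intervals. With library totals both ratios are higher, by 0.52 and 0.73 on the log2 scale. In RNA it had 6 counts in Col-0, 6 in nrpd1-3 and 22 in nrpe1-11, or 12.5, 14.2 and 47.4 CPM. The RNA library of nrpe1-11 stood apart from both others, 3.78 times Col-0 (1.49 to 11.4) and 3.34 times nrpd1-3 (1.31 to 10.1). Both were called higher, where 14.0% of 3297 measured genes were called higher in RNA of nrpe1-11 against Col-0 and 4.82% against nrpd1-3. SUVH9 entered the RNA comparison only through this library, the one in which it was high. The RNA ratio in nrpd1-3 was 1.13 (0.303 to 4.24), with 0 of the 2 measured members called, beside 7.25% of genes higher and 11.9% lower. The other measured member, SPT5L, was not called in nrpe1-11 either, where 19.0% of genes were lower against Col-0 and 5.31% against nrpd1-3. SUVH2 made up 5.17% of the pair's NRO counts in Col-0 (exact Clopper-Pearson interval 1.08 to 14.4), 12.0% in nrpd1-3 (8.44 to 16.3) and 13.6% in nrpe1-11 (9.73 to 18.2). That share needs no scaling of libraries, and its intervals overlap between genotypes.

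AGO4, the main Argonaute of the pathway in leaves, had 23 NRO counts in Col-0, 155 in nrpd1-3 and 199 in nrpe1-11. The levels were 11.5 CPM (7.28 to 17.2), 17.7 (15.0 to 20.7) and 21.4 (18.6 to 24.6). The Col-0 level was the lowest, and its interval does not meet that of nrpe1-11. The NRO ratio to Col-0 was 1.54 in nrpd1-3 (0.989 to 2.50) and 1.87 in nrpe1-11 (1.21 to 3.01), short of 2-fold. In RNA the counts were 7, 14 and 14, or 14.6, 33.1 and 30.1 CPM, with ratios of 2.27 (0.856 to 6.64) and 2.06 (0.779 to 6.04). AGO4 was not called in NRO and was not measured in RNA. All 4 ratios to Col-0 were above 1, but those of each assay share its Col-0 library and are not independent.

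AGO6, a related Argonaute, had 3, 9 and 15 NRO counts and 2, 1 and 0 RNA counts. It was not measured in either assay. It made up 11.5% of the counts of AGO4 and AGO6 in NRO of Col-0 (2.45 to 30.2), 5.49% in nrpd1-3 (2.54 to 10.2) and 7.01% in nrpe1-11 (3.98 to 11.3), and these intervals overlap. AGO9, a relative of AGO4 known from reproductive tissue, had 0 counts in all 6 libraries, where 3 counts equal between 0.323 CPM in NRO of nrpe1-11 and 7.10 CPM in RNA of nrpd1-3.

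SPT5L, a relative of the elongation factor SPT5 whose repeats bind AGO4, was among the deepest counted of the 10 genes. It had 48 NRO counts in Col-0, 275 in nrpd1-3 and 279 in nrpe1-11, or 24.0, 31.3 and 30.1 CPM. The ratios to Col-0 were 1.31 (0.959 to 1.82) and 1.25 (0.920 to 1.74), so with TMM both intervals include 1 and exclude a 2-fold difference. RNA counts were 19, 20 and 12, or 39.7, 47.3 and 25.8 CPM. The RNA ratios were 1.19 (0.605 to 2.36) and 0.651 (0.288 to 1.41). None of these was called with TMM, while with library totals SPT5L was called higher in NRO of nrpe1-11.

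IDN2, an RNA-binding protein that associates with Pol V transcripts, was lower in NRO of both mutants. It had 26 counts in Col-0, 36 in nrpd1-3 and 50 in nrpe1-11, although the Col-0 library was the smallest. The levels were 13.0 CPM in Col-0 (8.48 to 19.0), 4.1 in nrpd1-3 (2.87 to 5.68) and 5.39 in nrpe1-11 (4.00 to 7.10). Col-0 stood above both mutants with no overlap of intervals, and the mutants overlapped each other. The ratio to Col-0 was 0.316 in nrpd1-3 (0.186 to 0.545) and 0.415 in nrpe1-11 (0.253 to 0.694), both called lower. RNA counts were 3, 2 and 2, too few for a call lower at any count in the mutants.

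DRM2, the methyltransferase that places new DNA methylation, had 6, 14 and 34 NRO counts. These are 3.00, 1.60 and 3.66 CPM. Neither mutant was called against Col-0, with ratios of 0.532 (0.192 to 1.69) and 1.22 (0.507 to 3.56). Between the mutants, nrpe1-11 was 2.30 times nrpd1-3 (1.20 to 4.63) and was called higher. This was the only member called between the mutants in NRO, where 3.35% of 16083 genes were called higher and 4.66% lower, and DRM2 was measured only through nrpe1-11. RNA counts were 4, 3 and 4. DRM1, its closest relative, had 0 counts in all 6 libraries.

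MORC1, an ATPase of the GHKL family that acts in gene silencing and in pathogen resistance, was lower in NRO of nrpe1-11. Its NRO counts were 37, 97 and 76, or 18.5 CPM (13.0 to 25.5), 11.1 (8.97 to 13.5) and 8.19 (6.45 to 10.2). The nrpe1-11 interval lies wholly below that of Col-0, while that of nrpd1-3 reaches it. The ratio to Col-0 was 0.443 in nrpe1-11 (0.295 to 0.675), called lower, and 0.598 in nrpd1-3 (0.406 to 0.899), not called. RNA counts were 7, 5 and 5, with ratios of 0.810 (0.203 to 2.96) and 0.737 (0.184 to 2.70).

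Of the 9 members measured in NRO, 1 was therefore called in nrpd1-3, IDN2, which was lower. Of all 16083 measured genes, 16.3% were called in that comparison, 9.31% higher and 6.99% lower. In nrpe1-11 IDN2 and MORC1 were lower and 0 members higher, where 23.2% of genes were called, 12.1% higher and 11.1% lower. These counts are near the shares over all genes and are no result about the 10 genes as a set. The median log2 ratio of the measured members was 0.05 in nrpd1-3 and 0.01 in nrpe1-11, against 0.03 and 0.04 over all measured genes. Both comparisons share the Col-0 library. With library totals in place of TMM, the median of all genes moved by 0.52 and 0.73 on the log2 scale. The split in nrpd1-3 then became 2 higher, AGO4 and SUVH2, and 1 lower, IDN2. In nrpe1-11 it became 3 higher and 0 lower, where SPT5L, at 1.04, was added to AGO4 and SUVH2. AGO4 passed the rule with log2 ratios of 1.12 and 1.60, and in nrpe1-11 IDN2 and MORC1 stood at −0.52 and −0.43 with no call. SUVH2 was measured only through the mutant libraries, in which it was high. Library totals called 4220 of the 16083 genes in nrpd1-3 and 6189 in nrpe1-11, higher and lower together. From the split with library totals nothing is read about the 10 genes as a set.

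**Figure D2:**
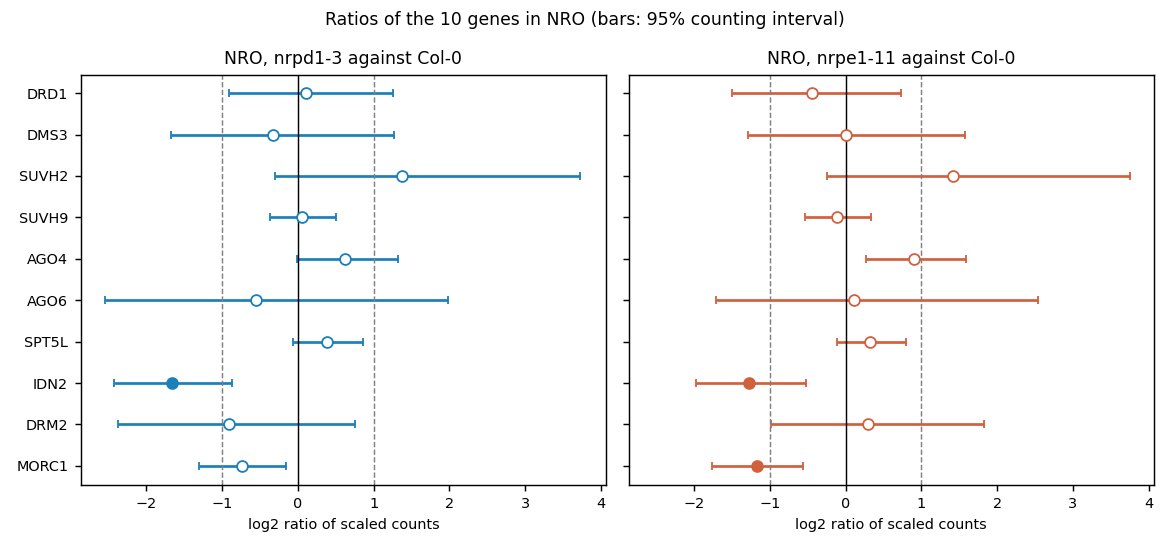
Log2 ratio of scaled NRO counts of each of the 10 genes in nrpd1-3 (left) and nrpe1-11 (right) against Col-0, with 95% counting intervals as bars, filled points for called genes and dashed lines at 2-fold. IDN2 is filled in both panels and MORC1 in the right panel; SUVH2, with 3 counts in Col-0, has the point farthest to the right and a wide interval.

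Shares within the 10 genes do not depend on how libraries are scaled. IDN2 made up 12.0% of their summed NRO counts in Col-0 (7.98 to 17.1), 3.84% in nrpd1-3 (2.70 to 5.27) and 5.06% in nrpe1-11 (3.78 to 6.62). MORC1 made up 17.1% (12.3 to 22.7), 10.3% (8.47 to 12.5) and 7.69% (6.11 to 9.53). AGO4 made up 10.6% (6.84 to 15.5), 16.5% (14.2 to 19.1) and 20.1% (17.7 to 22.8). Against the sum of the other members, the odds of an IDN2 count were 0.294 times those in Col-0 for nrpd1-3 (0.168 to 0.519) and 0.392 times for nrpe1-11 (0.233 to 0.673). For MORC1 these odds ratios were 0.561 (0.367 to 0.873) and 0.406 (0.261 to 0.639). The odds of an AGO4 count were 1.67 times those in Col-0 for nrpd1-3 (1.04 to 2.79) and 2.13 times for nrpe1-11 (1.33 to 3.53). Those of a SPT5L count were 1.46 times for nrpd1-3 (1.02 to 2.12) and 1.39 times for nrpe1-11 (0.968 to 2.01). Beyond counting error, IDN2 and MORC1 thus took a smaller part of the group's nascent counts in both mutants, AGO4 a larger part in both, and SPT5L a larger part in nrpd1-3. The shares sum to the whole, so they are not independent of one another.

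**Figure D3:**
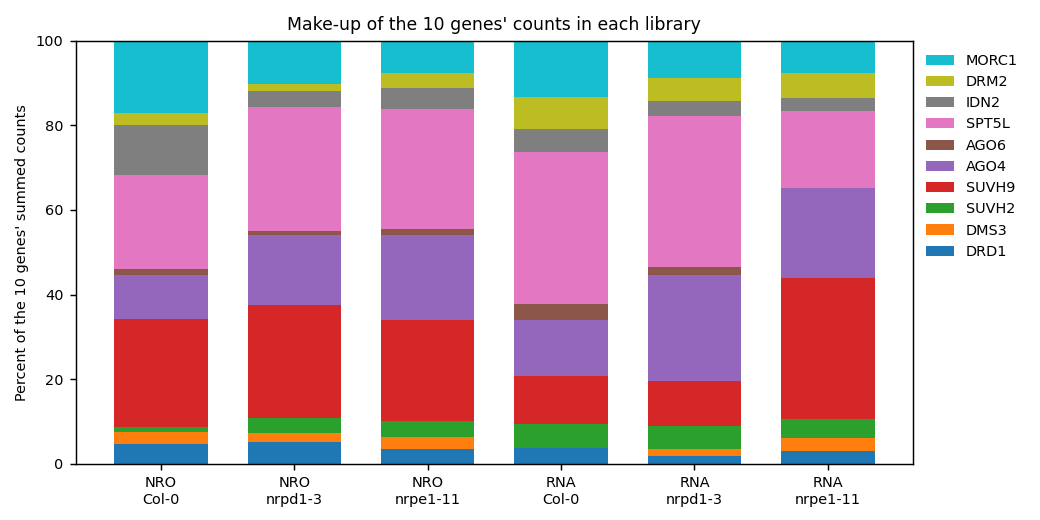
Stacked bars give the percent of the 10 genes' summed counts that each gene held in each of the 6 libraries. The MORC1 segment shrinks from 17.1% in NRO of Col-0 to 7.69% in nrpe1-11 while AGO4 widens from 10.6% to 20.1%, and SUVH9 takes 33.3% in RNA of nrpe1-11 against 11.3% in RNA of Col-0.

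The response to genotype was then compared between assays, as the NRO ratio divided by the RNA ratio, for 10 genes in 3 contrasts. Of these 30 values, 2 had an interval that excluded 1, and both were of SUVH9. The nrpe1-11 ratio in NRO was 0.245 times that in RNA against Col-0 (0.0774 to 0.661) and 0.268 times against nrpd1-3 (0.0873 to 0.697). Both rest on the same 22 RNA counts of nrpe1-11 and are not adjusted for the 30 values. Against Col-0 in nrpe1-11, the interval of AGO4 ran from 0.277 to 2.68 and that of SPT5L from 0.819 to 4.61, so both include 1 and neither reaches the value of SUVH9. The interval of IDN2 ran from 0.0639 to 7.54 and that of MORC1 from 0.151 to 2.55. For IDN2 and MORC1 a difference as large as that of SUVH9 was not detectable at this RNA depth. Members with 4 or fewer RNA counts in Col-0 could not have been called lower at any count in a mutant, and these were DRD1, DMS3, SUVH2, AGO6, IDN2 and DRM2.

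Both assays were then joined in 1 additive model (edgeR, quasi-likelihood), with genotype and assay as terms over the 6 libraries, for the 14530 genes that reached 20 counts in 2 libraries or more. It tested 8 members, without AGO6 and DRM2. Its 2 residual degrees of freedom per gene come from how the response to genotype differs between assays, not from the spread between plants. The prior degrees of freedom were infinite, so the edgeR test used a spread pooled over genes, not each gene's own. MORC1 fell in nrpe1-11 by 1.13 ± 0.42 on the log2 scale (fitted value ± SE, edgeR adjusted p = 0.0416 by Benjamini-Hochberg) and was the only member called. In that contrast 18.5% of all genes were called, 6.94% higher and 11.5% lower. IDN2 was fitted at −1.52 ± 0.56 in nrpd1-3 (edgeR adjusted p = 0.0624) and −1.24 ± 0.54 in nrpe1-11 (edgeR adjusted p = 0.0944), and AGO4 at 0.72 ± 0.38 (edgeR adjusted p = 0.260) and 0.84 ± 0.37 (edgeR adjusted p = 0.106). None of these passed.

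In nrpd1-3 against Col-0, 0 of the 8 members were called, beside 9.23% of all genes, 3.89% higher and 5.34% lower. Unadjusted p under 0.05 was reached there by 1 of the 8 members in edgeR, 0 in DESeq2 and 1 in limma, beside 21.2%, 8.66% and 8.16% of all genes. In nrpe1-11 against Col-0 these numbers were 3, 0 and 2 members, beside 29.0%, 14.7% and 12.0% of genes. Between nrpe1-11 and nrpd1-3, 0 members were called beside 0.461% of genes higher and 1.67% lower, with 0 at unadjusted p under 0.05 in each of the 3 tools, beside 11.9%, 3.41% and 4.03% of genes. Between NRO and RNA, 0 members were called beside 16.7% of genes higher and 9.88% lower, with 1 at unadjusted p under 0.05 in edgeR and 0 in DESeq2 and in limma, beside 36.5%, 24.3% and 20.1% of genes. The lowest fitted values of NRO against RNA were those of SUVH2, −1.09 ± 0.71 (edgeR adjusted p = 0.262), and AGO4, −0.67 ± 0.33 (edgeR adjusted p = 0.121).

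The call of MORC1 depended on the setting. Its adjusted p in nrpe1-11 was 0.406 in DESeq2 and 0.414 in limma with each gene's own spread. In edgeR it was 0.0511 with DESeq2 size factors and 0.0689 with no count filter. When each library was left out in turn, it ran from 0.0256, without RNA of Col-0, to 0.803, without NRO of nrpe1-11, and the call was lost without each of the other 5 libraries. It was 0.736 without NRO of Col-0, 0.143 without NRO of nrpd1-3, 0.0670 without RNA of nrpd1-3 and 0.0658 without RNA of nrpe1-11. The fitted change stayed below 0 in each of these fits, between −1.20 and −0.61. AGO4 was called higher in nrpe1-11 without NRO of nrpd1-3 (edgeR adjusted p = 0.0392), and IDN2 lower in nrpd1-3 without RNA of Col-0 (edgeR adjusted p = 0.0223).

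**Figure D4:**
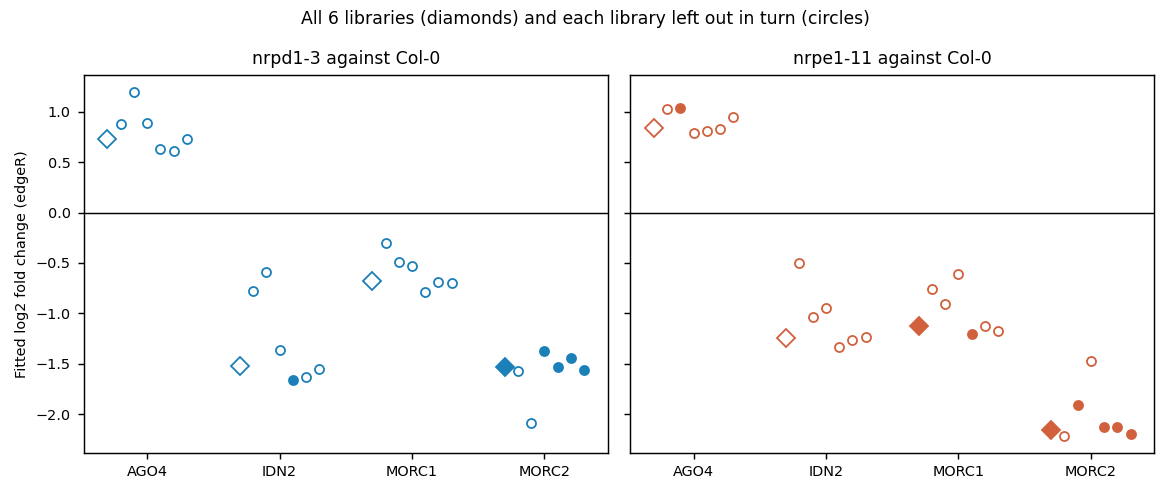
Fitted log2 fold changes of AGO4, IDN2, MORC1 and MORC2 in nrpd1-3 (left) and nrpe1-11 (right) against Col-0, from all 6 libraries (diamonds) and with each library left out (circles, from left: NRO of Col-0, nrpd1-3, nrpe1-11, then RNA in the same order). Filled symbols have an edgeR adjusted p under 0.05; AGO4 stays above 0 and the other genes below 0 in each fit.

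The relatives of the members gave 3 further called genes. MORC2 (AT4G36280, CRH1 in RefSeq) is a close relative of MORC1 and its neighbour on the chromosome. It had 63, 100 and 67 NRO counts, or 31.5, 11.4 and 7.22 CPM, and 9, 2 and 3 RNA counts. Its NRO ratio to Col-0 was 0.362 in nrpd1-3 (0.262 to 0.505) and 0.229 in nrpe1-11 (0.160 to 0.329), called lower in both. In the additive model it fell by 1.53 ± 0.39 in nrpd1-3 (edgeR adjusted p = 0.00249) and by 2.15 ± 0.41 in nrpe1-11 (edgeR adjusted p = 3.8e-06). Without NRO of Col-0 these became 0.503 and 0.119. They became 0.441 in nrpd1-3 without NRO of nrpd1-3, and 0.475 in nrpe1-11 without NRO of nrpe1-11. DESeq2 gave 0.0234 in nrpe1-11 and no adjusted p in nrpd1-3.

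MORC1 and MORC2 were thus both lowest in NRO of nrpe1-11 and highest in NRO of Col-0. MORC1 made up 37.0% of the pair's NRO counts in Col-0 (27.6 to 47.2), 49.2% in nrpd1-3 (42.1 to 56.4) and 53.1% in nrpe1-11 (44.6 to 61.5). The odds of a MORC1 count were 1.65 times those in Col-0 in nrpd1-3 (0.982 to 2.79) and 1.93 times in nrpe1-11 (1.11 to 3.37). Reads aligned to several places were assigned to no gene, so 2 genes this alike may both be under-counted. AT4G36270, the gene on the other side of MORC2, chosen after its values were seen, had 11, 11 and 14 NRO counts, or 5.49, 1.25 and 1.51 CPM. It was below 20 counts in each library and was not measured.

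**Figure D5:**
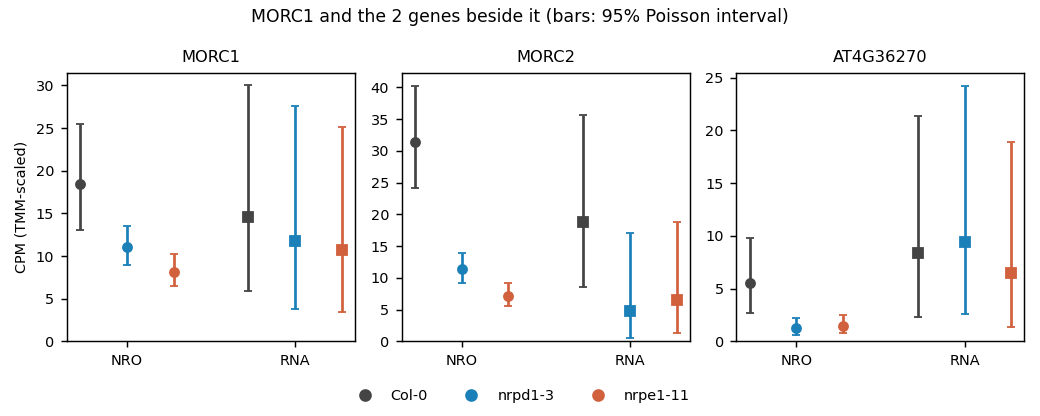
Levels of MORC1, MORC2 and AT4G36270, which follow each other on the chromosome, in NRO (circles) and RNA (squares), in TMM-scaled CPM with exact 95% Poisson intervals and genotypes by colour. In NRO each is highest in Col-0, at 18.5, 31.5 and 5.49 CPM; RNA intervals overlap between genotypes.

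DRM3 (AT3G17310), a relative of DRM2 that lacks methyltransferase activity but is needed for full methylation, had 115, 310 and 224 NRO counts. These are 57.4, 35.3 and 24.1 CPM, and RNA counts were 18, 11 and 9. In nrpe1-11 the NRO ratio was 0.420 (0.334 to 0.531), called lower, and the additive model gave a fall of 1.29 ± 0.30 (edgeR adjusted p = 0.00037). With library totals its log2 ratio was −0.52, with no call, while that of MORC2, at −1.36, was still called. The call of DRM3 in the model was lost in DESeq2 (adjusted p = 0.0712), without NRO of Col-0 (edgeR adjusted p = 0.160) and without NRO of nrpe1-11 (edgeR adjusted p = 0.421). SUVH4 (AT5G13960), a histone methyltransferase related to SUVH2 and SUVH9, had 8, 196 and 40 NRO counts and 7, 8 and 0 RNA counts. Its NRO ratio in nrpd1-3 was 5.59 (2.78 to 13.1), called higher, and the additive model gave 1.71 ± 0.48 (edgeR adjusted p = 0.00708). The fitted value became −0.02 without NRO of Col-0, the adjusted p was 0.798 in limma, and without NRO of nrpd1-3 too few libraries held 20 counts for a test. Between the mutants, SUVH4 in NRO of nrpe1-11 was 0.193 times nrpd1-3 (0.134 to 0.272), called lower. There it fell by 2.50 ± 0.41 in the model (edgeR adjusted p = 9.17e-07), and was fitted between −2.63 and −2.25 in the 4 fits without 1 library in which it could be tested (highest edgeR adjusted p = 0.00017). In limma its adjusted p there was 0.875. Of 12 relatives, 6 were measured in NRO, with 1 higher and 1 lower for nrpd1-3, against 0 higher and 2 lower for nrpe1-11. Over all measured genes the shares were 9.31% higher and 6.99% lower for nrpd1-3, and 12.1% and 11.1% for nrpe1-11. With 6 genes measured, nothing particular to the relatives is read from these counts.

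Of 22 other factors of the pathway, 13 were measured in NRO and 0 in RNA. In each mutant 3 were called higher in NRO and 0 lower, beside the same shares over all genes. The 4 genes called had under 20 counts in Col-0 and were measured only through the mutant libraries in which they were high. SHH1, which recruits Pol IV, had 8, 16 and 13 counts and so was not measured, with a ratio of 0.350 in nrpe1-11 (0.135 to 0.975). The filter thus bears on this split, from which nothing is read. In nrpd1-3 these were NRPD1, RDR2, the polymerase that copies Pol IV transcripts, and MORC6, a partner of MORC1 in silencing. In nrpe1-11 they were RDR2, MORC6 and NRPE5, a subunit of Pol V. RDR2 had 0, 27 and 25 NRO counts, where 3 counts in Col-0 equal 1.5 CPM and the mutants stood at 3.08 and 2.69 CPM. MORC6 had 8, 75 and 80 counts, with ratios of 2.14 (1.03 to 5.14) and 2.16 (1.04 to 5.17). The additive model tested 11 of the 22 and called 0 in either mutant, beside 9.23% of all genes in nrpd1-3 and 18.5% in nrpe1-11. FDM1 and FDM2 stand in both lists, and FDM1 is counted among the measured genes of each.

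The leaf label was checked against marker genes. All 5 mesophyll markers were above 0 in every library, with a summed level of 2801, 1615 and 2164 CPM in NRO and of 3878, 2918 and 5342 CPM in RNA. RBCS1A and RCA were called lower in NRO of nrpd1-3, at 0.367 times Col-0 (0.343 to 0.393) and 0.415 (0.392 to 0.439). There 6.99% of all measured genes were called lower. In NRO of nrpe1-11, 0 of the 5 were called. LHCA1 went the other way, at 1.03 and 1.12 times Col-0 in NRO. The 3 genes listed as root markers were PYK10, SHR and SCR, and whether they mark root alone was not tested. They summed to 31.5, 80.4 and 56.9 CPM in NRO and to 27.1, 89.9 and 166 CPM in RNA. PYK10 alone held 17.0, 45.5 and 29.3 CPM in NRO and 20.9, 75.7 and 131 CPM in RNA. SHR was at 0 in RNA of Col-0. In NRO all 3 were called higher in nrpd1-3 and 1, SHR, in nrpe1-11, where 9.31% and 12.1% of all measured genes were called higher. SHR had 1, 52 and 41 NRO counts and was measured only through the mutant libraries, in which it was high. The 6 markers of dividing cells summed to 51.9, 106 and 64.4 CPM in NRO. CYCD3;1 held most of this sum, with 81, 838 and 491 counts, and was called higher in nrpd1-3 (2.36 times Col-0, 1.88 to 3.00). The other 5, split off after their values were seen, summed to 11.5, 10.8 and 11.5 CPM, and CYCB1;1 was at 0 in NRO of nrpe1-11.

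The 3 epidermis markers summed to 16.0, 22.7 and 30.2 CPM in NRO, and AT5G25390 (SHN3 in RefSeq) was at 0 in Col-0. Of them ATML1 was called higher in both mutants, at 2.19 times Col-0 (1.33 to 3.85) and 3.13 times (1.92 to 5.47), while CER1 was called lower in nrpe1-11, at 0.460 (0.242 to 0.914). In the additive model ATML1 rose by 1.20 ± 0.36 in nrpe1-11 (edgeR adjusted p = 0.00828). The 3 guard cell markers summed to 9.99, 8.32 and 11.6 CPM in NRO. KAT1 was called higher in nrpe1-11, at 7.44 times Col-0 (1.98 to 62.7) from 2 counts in Col-0, and FAMA lower, at 0.364 (0.189 to 0.723). The 2 phloem markers summed to 25.5, 27.6 and 27.5 CPM. Flower markers summed to 2.50 CPM or less in NRO and to 0 in RNA. The sums of the root, epidermis, dividing-cell and phloem markers were higher in NRO of both mutants than in Col-0, that of dividing cells mostly through CYCD3;1. The mesophyll sum was lower in both, although LHCA1 was not. These sums stand beside the differences in IDN2, MORC1 and AGO4, and their part in those differences was not tested.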

How the data were processed

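Reads of 3 NRO and 3 RNA libraries had been trimmed with Trimmomatic 0.33, aligned with TopHat2 2.1.0 to TAIR10 and counted with HTSeq, per the submitters' processing notes. HTSeq's version and strand setting are not given in the sources used here. The deposited values are raw whole-number counts per gene, made by the authors, for 32678 genes, with 5 summary lines. The summary lines and 279 organelle genes, at 0 counts throughout, were left out. Per the labels, an mRNA kit that marks strand was used, and the protocol of the RNA samples also repeats the capture on streptavidin beads. A further 3 samples of genomic DNA were not analysed here.

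TMM factors (edgeR 4.0.16, R 4.3.3) were computed per assay on genes that reached 20 counts in any of its libraries, and log2 ratios used a prior count of 2. Ratio intervals are conditional Clopper-Pearson 95%, those between assays conditional Fisher. They cover counting error only, since no molecular identifiers separate molecules from copies. The additive model used edgeR's quasi-likelihood test with Benjamini-Hochberg adjustment over all 14530 genes at 0.05, with a common biological coefficient of variation of 0.183 and infinite prior degrees of freedom. Its SE is the fitted fold change over the root of the F statistic. DESeq2 1.42.0 and limma 3.58.1 were alternatives, and the scripts were tested on simulated data. Names and neighbours came from RefSeq TAIR10.1, and no gene length was used, so levels are not compared between genes.

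The text names the 10 members, NRPD1, NRPE1 and, by size of change, called genes of the lists of relatives and other factors. Genes like a member over all 6 libraries were to be named for members with 20 counts in each, and 0 members reached that. Members and lists were chosen with earlier results of these data known.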

Additional observations from a re-analysis of the deposited data

Results flagged for a closer look

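SUVH9 was the only one of the 10 genes whose response to genotype was seen to differ between assays beyond counting error. It was measured in RNA only through the nrpe1-11 library, in which it was high. The nrpe1-11 to Col-0 ratio in NRO was 0.245 times that in RNA (95% interval 0.0774 to 0.661), from 236 and 55 NRO counts and 22 and 6 RNA counts. The nrpe1-11 to nrpd1-3 ratio in NRO was 0.268 times that in RNA (0.0873 to 0.697), from 236 and 250 NRO counts and 22 and 6 RNA counts. Both share the nrpe1-11 libraries. They are 2 of 30 values computed, with no replicate and no adjustment for their number. For nrpe1-11 against Col-0, the intervals of DRD1 (0.0447 to 10.6) and IDN2 (0.0639 to 7.54) hold the SUVH9 value, while those of AGO4 and SPT5L do not. At this RNA depth, a difference of that size could thus go undetected in other members. In RNA the mesophyll markers were also highest in nrpe1-11, at 5342 CPM. So were the genes listed as root markers, at 166 CPM, of which PYK10 held 131 CPM. The part of these markers in the SUVH9 difference was not tested.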

How the results depend on the processing

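With library totals, called members numbered 2 higher and 1 lower in NRO of nrpd1-3, and 3 higher and 0 lower in NRO of nrpe1-11. Ratios of the members' sum, chosen after seeing the data, became 1.42, 1.63 and, between mutants, 1.15 in NRO, and 1.94 in RNA of nrpd1-3. Library totals called 4220 and 6189 of all genes, against 2622 and 3726. A 1.5-fold threshold gave 0 higher and 2 lower in NRO of nrpd1-3, and 1 higher and 2 lower in NRO of nrpe1-11. It called 4590 and 5811 of all genes. With at least 50 counts, DRM2 between mutants and SUVH9 in RNA were no longer measured, which left 0 calls in each. In the additive model, members called lower in nrpe1-11 (1, MORC1) numbered 0 in DESeq2, limma, edgeR with DESeq2 size factors, no count filter and no assay block; the cause was not tested. Of all genes, nrpe1-11 had 2686 calls in edgeR, 1041 in DESeq2, 0 in limma and 0 without the block. Among settings that kept all 6 libraries, fitted values that changed sign were all without a call in the main fit. SUVH4 in nrpd1-3 was called higher in the main fit and became −0.0187 without NRO of Col-0. In nrpd1-3, DRD1 became −0.15 in DESeq2, −0.36 in limma and −0.0466 without the assay block, and DMS3 0.28, 1.08 and 0.0451, and 0.00797 with no count filter. SPT5L in nrpe1-11 became 0.00537 with DESeq2 size factors. Between mutants limma gave DRD1 0.0630 and AGO4 −0.00100. Between assays SUVH4 became 0.47 in limma and MORC1 0.0303 with no count filter.

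Leaving out each library in turn, counts of members called ran from 0 to 1 in each direction that changed (nrpd1-3 lower, nrpe1-11 higher and lower, NRO against RNA lower). In nrpd1-3, fitted values ran from −0.20 to 0.12 (DRD1), −0.37 to 6.58 (DMS3, at 0 RNA counts in Col-0), −0.0194 to 1.33 (SUVH2), −0.16 to 0.60 (SPT5L), −0.0187 to 2.48 (SUVH4) and −0.75 to 1.14 (SUVH9). In nrpe1-11 they ran from −0.0618 to 1.33 (SUVH2), −0.59 to 0.24 (SPT5L), −0.0224 to 6.89 (DMS3) and −0.15 to 1.86 (SUVH9). Between mutants they ran from −0.16 to 0.22 (AGO4), −0.44 to 0.42 (IDN2), −0.68 to 0.18 (MORC2), −0.0841 to 0.0866 (SUVH2) and −0.18 to 1.65 (SUVH9). Between assays they ran from −0.39 to 1.06 (DMS3), −0.39 to 0.92 (SUVH9), −0.71 to 0.52 (SUVH4), −0.000497 to 0.67 (IDN2) and −0.0672 to 0.51 (DRD1). SUVH9 was called higher in nrpe1-11 without its NRO library (1.86, edgeR adjusted p = 0.0442), and SPT5L lower in NRO than RNA without the same library (−0.91, edgeR adjusted p = 0.0437). A genotype left with 1 library is assumed to vary like the others. TMM over all genes, chosen after seeing the data, changed no call of a member. The additive model has assay as its block, or genotype for NRO against RNA. No block for replicate numbers was fitted, since each group has 1 library. Levels per length were not run. RNA depth limits these results, since 3 counts equal 6.26 to 7.10 CPM.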
